A study of Mus musculus with 6 samples.

Results

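The colony-stimulating factors Csf1, Csf2 and Csf3, the cytokine Il34 and the receptor genes Csf1r, Csf2ra, Csf2rb and Csf3r were followed across 6 two-colour Agilent arrays of sorted mouse mammary gland cells. Members were the probes that the scanner files name by one of these 8 symbols: 13 of 55681 probes, and 8 of 34964 gene names. Where a gene had several probes, the one of highest mean signal is called its main probe. CSF1 (M-CSF) and IL-34 are both ligands of the receptor tyrosine kinase CSF1R, on which the survival of most tissue macrophages depends, and in the mammary gland CSF1 is known for recruiting macrophages to growing ducts. GM-CSF, the product of Csf2, binds an alpha chain encoded by Csf2ra and signals through the beta chain encoded by Csf2rb. G-CSF, the product of Csf3, acts on CSF3R and drives the making of neutrophils.

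The arrays covered 4 groups, all from virgin female mice. Dll1-high and Dll1-low basal cells (1 array each) were the mCherry+ and mCherry- fractions of the CD24+CD29hi gate, labelled MaSC, of the reporter strain C57/B6:Dll1-mCherry. KO macrophages (2 arrays) were F4/80+ cells of C57/B6:cKO-Dll1 mice, a conditional knockout of the Notch ligand Dll1, and WT macrophages (2 arrays) were F4/80+ cells of wild type littermates. The labels give no Cre driver, no age, no exons deleted, and do not say whether arrays came from separate or pooled animals, so the p-values measure only the spread between these arrays. Each sample was labelled with Cy5 and set against a common reference in Cy3, RNA pooled from 11 mouse cell lines; every value below is a log2 ratio of sample over that reference unless it is called a Cy5 signal. A ratio of 0 therefore means as much as in the reference, not absence, and ratios of different probes are not set against each other.

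The parts of the probes that the results turn on are shown first, from their bases 31 to 60 as the scanner files give them, to let the targets be recognised. The coordinates are on mm9, and whether a probe lies in an exon or a UTR was not analysed here. The Csf1 main probe (A_51_P195506) lies at chr3:107544333-107544392 on the minus strand and a Csf1 probe designed on another transcript variant (A_55_P2017914) at chr3:107548550-107548609. The Il34 probe (A_51_P268234) lies at chr8:113265835-113265894 on the minus strand and the Csf3 probe (A_51_P317176) at chr11:98564614-98564673 on the plus strand.
Csf1 main probe: actatttccatgctagaaaatacatatttt
Csf1 variant probe: agctgcatcatatattgtcatatgttgagc
Il34 probe: ggacttactggggcttttcagttgtgctga
Csf3 probe: aacagcagtgttcccaaactgggttcttat

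The markers of both sorted cell types were read before the members. The median log2 ratio of 10 basal markers was 4.17 in Dll1-high and 3.91 in Dll1-low basal cells, against 0.64 and 0.46 in KO and 0.62 and 0.33 in WT macrophages. Over 20 macrophage markers, a list that holds Csf1r itself, it was -0.01 on both basal arrays, against 2.72 and 3.73 in KO and 2.46 and 3.57 in WT macrophages. The other cell type's markers were not absent: all 20 macrophage markers were well above background on both basal arrays, and 8 or 9 of the 10 basal markers on each macrophage array. Cy5 was well above background for 86.0% to 88.1% of spots on the basal arrays and 47.4% to 71.9% on the macrophage arrays. The basal arrays shared a slide and a scan and the macrophage arrays another, so an effect of the slide and one of the cell type cannot be told apart. The Dll1 main probe, the check of the knockout label, read 0.80 and 2.25 in KO, against 0.78 and 3.24 in WT macrophages; the genotypes overlapped, and where the probe lies relative to the deletion is not given. WT replicate 1 stood apart from the other macrophage arrays, with a correlation across probes of 0.409 with WT replicate 2, where KO replicate 2 and WT replicate 2 correlated at 0.957; values without it stand beside the results it moves most. The readings of all 13 probes are shown array by array in the plot that follows.

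**Figure D1:**
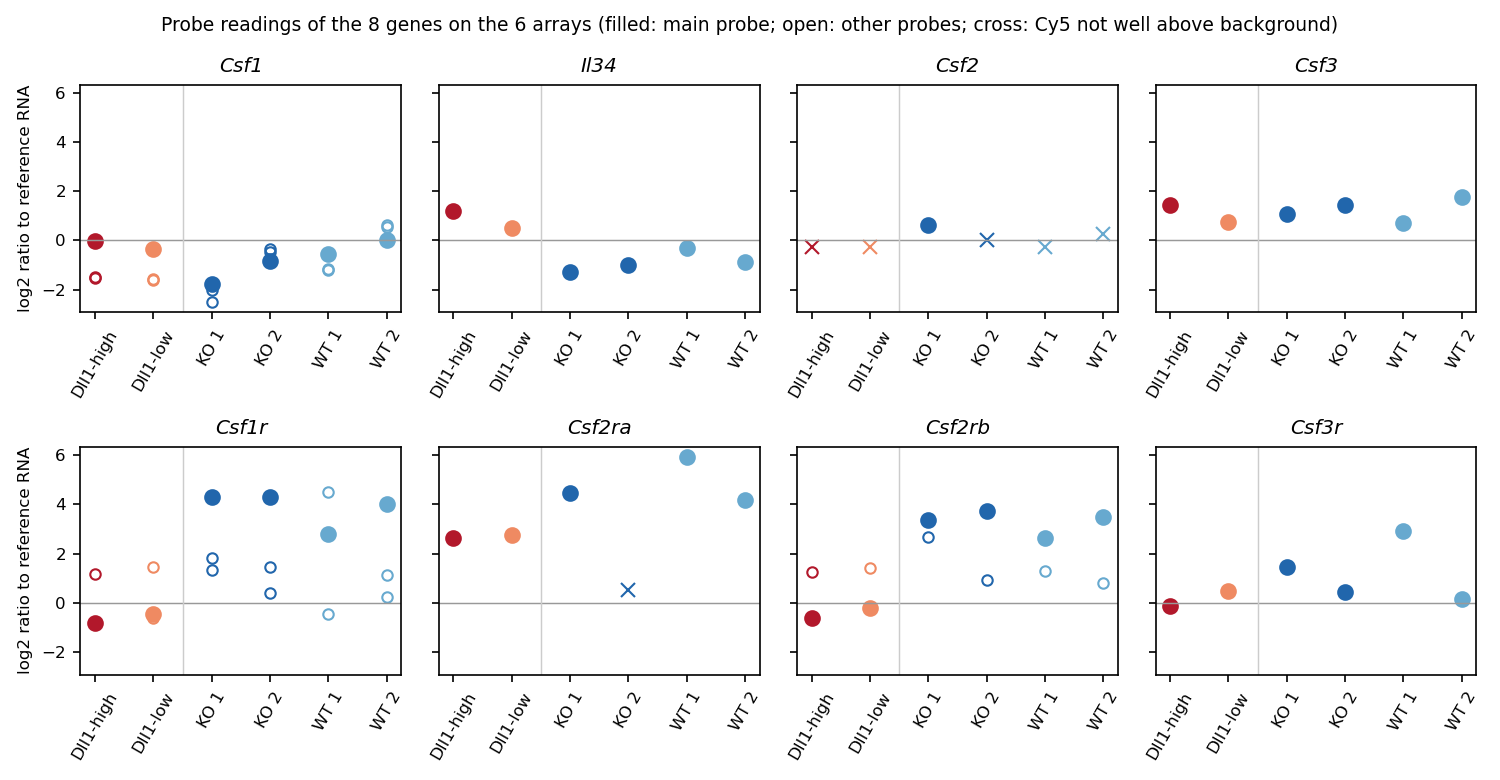
Log2 ratio to the reference RNA (y axis) on each of the 6 arrays (x axis) for the 8 genes, 1 panel a gene; filled points are main probes, open points the other probes, and crosses readings whose Cy5 was not well above background. With loess the Csf1r and Csf2rb main probes sit under 0 on both basal arrays and between 2.65 and 4.31 on the 4 macrophage arrays, and Il34 runs the other way, with 1.21 and 0.52 against values under 0. With median centring the Csf1r and Csf2rb main probes read 0.16 and 0.40 on WT replicate 1.

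Among the ligands, Csf1 was well above background in both cell types on all 6 arrays. Its main probe, spotted 10 times on each array, gave -0.02 in Dll1-high and -0.35 in Dll1-low basal cells, -1.78 and -0.83 in KO macrophages, and -0.54 and 0.03 in WT macrophages. Both KO arrays lay below both WT arrays, while the basal readings overlapped the WT ones. KO minus WT was -1.06 (SE 0.48, 95% interval -2.37 to 0.25), a difference that did not pass the test (limma adjusted p 1), and that turned to 0.08 when the arrays were median-centred in place of loess. With loess the difference was -1.25 within slide row 1 and -0.87 within row 2. With median centring KO replicate 1 read -1.89 and WT replicate 1 -2.90, so the order in row 1 reversed. On KO replicate 1 the 10 spots were unequal: they ran between -2.53 and 0.55 with an SD of 0.858, against SDs of 0.0378 to 0.0803 on the other 5 arrays, and with the median over spots KO minus WT was -1.15.

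The 2 other Csf1 probes were designed on another transcript variant and overlap each other by 31 bases, so they are not independent. The first gave -1.50 in Dll1-high and -1.58 in Dll1-low basal cells, -2.01 and -0.49 in KO macrophages, and -1.21 and 0.55 in WT macrophages. Here, with loess, WT replicate 2 was the highest array and KO replicate 1 the lowest, and the genotypes overlapped. With median centring this probe read -1.97 and -1.01 in KO and -3.31 and 0.00 in WT macrophages. The second read -2.49 and -0.88 in KO and -3.33 and 0.11 in WT, so on both probes KO lay above WT in slide row 1. With loess the difference between KO and WT was -0.92 (SE 0.85) and -1.17 (SE 1.01) on these probes. Its sign was that of the main probe in either slide row, and it was -1.80 and -2.07 without WT replicate 1. Basal minus macrophage, by contrast, was 0.60 (SE 0.39, adjusted p 0.686) on the main probe and -0.75 and -0.73 on the variant probes (both -1.19 without WT replicate 1), so the probes of Csf1 disagreed in sign and none passed the test.

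Il34, the second ligand of CSF1R, was the ligand whose basal arrays both lay above all macrophage arrays. Its probe gave 1.21 in Dll1-high and 0.52 in Dll1-low basal cells, -1.28 and -0.99 in KO macrophages, and -0.31 and -0.88 in WT macrophages. The Cy5 signals behind these ratios were 2407 and 1490 in the basal cells, against 274.5 and 159.5 in KO and 201 and 209 in WT macrophages, over local backgrounds of 87 on both basal arrays and 67.5 to 71 on the macrophage arrays. The lowest basal array lay 0.82 above the highest macrophage array, and 15.8% of all probes likewise had both basal arrays on top. Basal minus macrophage was 1.73 (SE 0.27, 95% interval 0.97 to 2.48), or 3.31-fold, with an unadjusted p of 0.00348 and an adjusted p of 0.12 in limma, so it was not called. It stayed between 1.38 and 2.30 over all 15 alternatives run, with adjusted p between 0.0634 and 0.518.

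In the macrophages, both KO arrays read lower for Il34 than both WT arrays, but by a gap of 0.12. The mean difference, KO minus WT, was -0.55 (SE 0.37, 95% interval -1.55 to 0.45, limma adjusted p 1) and 0.20 with median centring. Within the slide rows it was -0.97 and -0.12, and without WT replicate 1 it was -0.26. The genes with the profile most like Il34 over the 6 arrays, by the root-mean-square difference of centred log2 ratios among 18338 genes, were Ttc28 (0.131), Tro (0.154), Bves (0.158), Rhbdl3 (0.161) and Slc4a3 (0.170).

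Csf2 and Csf3 were dim. The Csf2 probe was well above background in Cy5 on KO replicate 1 alone, where its Cy5 signal was 182, against 80.3 on KO replicate 2 and 81.8 and 92.8 on the WT arrays. In the basal cells the signals were 117 and 123, not well above background. It therefore failed the filter for every comparison and has no test. Csf3 was well above background in Cy5 on all 6 arrays, with signals of 304 in Dll1-high and 256 in Dll1-low basal cells, 249 and 177.5 in KO and 126 and 186 in WT macrophages. Its reference channel was not well above background on any array, so its log2 ratios rest on a dim denominator. They were 1.46 and 0.76 in Dll1-high and Dll1-low basal cells, 1.07 and 1.46 in KO and 0.71 and 1.78 in WT macrophages. KO overlapped WT, and basal cells overlapped macrophages. For Csf3, KO minus WT was 0.02 (SE 0.49) and basal minus macrophage -0.14 (SE 0.40), with 95% intervals of -1.32 to 1.36 and -1.28 to 0.99.

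Among the receptors, Csf1r gave the widest separation of the cell types. Its main probe (A_55_P2025078, chromosome 18) gave -0.82 in Dll1-high and -0.47 in Dll1-low basal cells, 4.31 and 4.31 in KO macrophages, and 2.80 and 4.02 in WT macrophages. The Cy5 signals were 3669 and 3730 in the basal cells, against 60900 and 49510 in KO and 4749 and 51510 in WT macrophages, so WT replicate 1 was the dim macrophage array. Its ratio depended on the normalization. With median centring it was 0.16, against 3.67 on WT replicate 2, 4.15 and 3.95 in KO, and -1.02 and -0.72 in the basal cells. Basal minus macrophage was -4.51 (SE 0.42, 95% interval -5.71 to -3.31), or 22.7-fold lower in basal cells, with an unadjusted p of 0.000587. The limma adjusted p was 0.0672, which missed the threshold of 0.05, and it was 0.0424 where only probes well above background on every array were tested. It rose to 0.433 with median centring and to 0.184 with a trend and robust prior in limma. Both basal arrays lay below all 4 macrophage arrays, as they did for 17.3% of all probes, and the difference stayed between -4.83 and -3.85 over 15 alternatives.

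The 3 Csf1r probes did not read alike. A second probe (A_52_P602091) gave -0.85 and -0.62 in Dll1-high and Dll1-low basal cells, 1.82 and 1.44 in KO macrophages, and -0.48 and 1.12 in WT macrophages, the same order with a smaller span. Its basal minus macrophage difference was -1.71 (SE 0.54, unadjusted p 0.0378, adjusted p 0.334). The third (A_55_P2025073) gave 1.16 and 1.45 in the basal cells, 1.32 and 0.41 in KO and 4.52 and 0.24 in WT macrophages. On that probe, with loess, WT replicate 1 was the highest array by more than 3, where on the other 2 probes it was the lowest macrophage array. With median centring it was still the highest on the third probe, at 2.09, but against 1.31 on KO replicate 1 and 1.25 in Dll1-low basal cells. With loess, basal minus macrophage was -0.32 (SE 1.39) on the third probe, turning to 0.75 without WT replicate 1.

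Between the genotypes, both KO arrays read above both WT arrays on the Csf1r main probe and on the second probe, but not on the third. KO minus WT was 0.90 (SE 0.51, 95% interval -0.50 to 2.30), 1.31 (SE 0.64) and -1.51 (SE 1.54) on the 3 probes, each with limma adjusted p 1. Without WT replicate 1 the second probe gave 0.51 and the third turned to 0.62. On the main probe the difference was 1.51 in slide row 1 and 0.28 in row 2, and 0.29 without WT replicate 1, so the size rests on that array. It was 2.14 with median centring. The median difference of the macrophage marker list was 0.49 in the same comparison, with 13 of 19 tested members higher in KO, but -0.15 with 7 of 19 higher without WT replicate 1; its part in the Csf1r difference was not tested. The closest profiles to Csf1r were those of Glipr1 (root-mean-square difference 0.115), Ptpn18 (0.174), Tbc1d4 (0.178), Fcgr2b (0.181) and Dennd1c (0.183).

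Csf2rb, the shared signalling chain for GM-CSF, IL-3 and IL-5, followed a similar order. Its main probe (A_52_P52618, chr15:78181168-78181227, plus strand) gave -0.62 in Dll1-high and -0.23 in Dll1-low basal cells, 3.35 and 3.73 in KO macrophages, and 2.65 and 3.51 in WT macrophages. With loess both basal arrays lay well below all 4 macrophage arrays, while the genotypes overlapped. With median centring WT replicate 1 read 0.40, against 2.97 on WT replicate 2, 3.19 and 3.21 in KO, and -0.58 and -0.15 in the basal cells. Basal minus macrophage was -3.73 (SE 0.34, 95% interval -4.70 to -2.76), or 13.3-fold lower in basal cells, with an unadjusted p of 0.000538 and a limma adjusted p of 0.0669. As for Csf1r, the adjusted p was 0.043 when only probes well above background on every array were tested. It rose to 0.443 with median centring and to 0.223 with a trend and robust prior in limma. The difference stayed between -3.95 and -2.81 over 15 alternatives. KO minus WT was 0.46 (SE 0.44, 95% interval -0.73 to 1.65), 0.03 without WT replicate 1 and 1.52 with median centring. A second probe (A_66_P123635) did not show the separation: it gave 1.26 and 1.40 in the basal cells, 2.68 and 0.92 in KO and 1.30 and 0.79 in WT macrophages, and basal minus macrophage was -0.10 (SE 0.60), or 0.03 without WT replicate 1.

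Mice carry a near copy of this gene, Csf2rb2, whose product serves the IL-3 receptor. Over 30 bases the main probes of both genes match at 27 positions, shown here because a transcript of one could bind the other's probe. Capitals mark the 3 mismatches, A11G, C15T and C25A, written from the Csf2rb to the Csf2rb2 letter and counted from the first base printed.
Csf2rb probe: ggcagatcaaAtgtCccttggtctCtgttc
Csf2rb2 probe: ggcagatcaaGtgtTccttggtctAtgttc

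The main Csf2rb2 probe (A_51_P146753) gave -0.10 and 0.20 in Dll1-high and Dll1-low basal cells, 3.24 and 3.81 in KO macrophages, and 2.58 and 4.07 in WT macrophages. Its basal minus macrophage difference was -3.37 (SE 0.53, adjusted p 0.128), and a second Csf2rb2 probe (A_55_P2034663) gave -2.28 (SE 0.80, adjusted p 0.376). The arrays cannot say how much of either gene's reading comes from the other. The profiles most like Csf2rb were those of Pik3r5 (0.117), Tlr13 (0.129), Phf11a (0.136), Fli1 (0.145) and Amz1 (0.155), by the same measure as above.

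Csf2ra, the alpha chain that gives the GM-CSF receptor its specificity, was bright in macrophages on 3 of 4 arrays. Its probe (A_51_P341465, chr19:61300336-61300395, minus strand) gave 2.64 in Dll1-high and 2.77 in Dll1-low basal cells, 4.46 and 0.52 in KO macrophages, and 5.93 and 4.20 in WT macrophages. On KO replicate 2 both channels were at background, with a Cy5 signal of 73.5 and a Cy3 signal of 19.5, although the Cy3 reference read between 375 and 1700 on the other 5 arrays. The reading of KO replicate 2 is therefore no measurement of Csf2ra in those cells. With loess, KO minus WT was -2.57 (SE 1.51) with that array and -0.61 without it. Basal minus macrophage was -1.07 (SE 1.36) with it and -2.05 without it. None of these passed the test. With median centring KO replicate 1 read 4.26, above the 3.54 and 3.74 of the WT arrays. The sign of KO minus WT without KO replicate 2 therefore depended on the normalization. Over the 5 arrays that measured Csf2ra, the closest profiles were those of Slx (0.0775), Tmem87a (0.0928), H2-Ab1 (0.126), Zfp992 (0.168) and Gm10487 (0.185). This match was made after the failed spot was seen. With that spot in the profile the nearest gene was Ifi208 at 0.874.

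The Csf3r probe needs its sequence beside its values. It lies at chr4:125721478-125721537 on the plus strand, and its 17 bases at the 3′ end, in capitals, are letters known from the B1 family of mouse short repeats. They recur in 4 probes of other names on the array, in 2 of them on the same strand and in 2 as the complement. In all, 6 probes of other names share a run of at least 17 bases with the Csf3r probe, and none do with any other probe of the 8 genes.
Csf3r probe: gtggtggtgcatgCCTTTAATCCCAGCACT

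The probe gave -0.13 in Dll1-high and 0.47 in Dll1-low basal cells, 1.45 and 0.45 in KO macrophages, and 2.94 and 0.15 in WT macrophages. With loess WT replicate 1 was the highest array and KO replicate 1 the next, with no separation of the genotypes. This order depended on the normalization. Median centring gave 1.35 and 0.17 in KO and 0.07 and -0.11 in WT macrophages, with KO replicate 1 the highest array. The Slc10a1 probe, which holds the same 17 bases, gave 0.45 and 1.29 in the basal cells, 1.57 and 0.55 in KO and 3.32 and 0.39 in WT macrophages, so with loess the same 2 macrophage arrays stood highest. The probe named TC1653005, the other on the same strand, gave -0.04 and 0.51, 0.55 on KO replicate 2, and 2.90 and 0.43 in WT macrophages; its spot on KO replicate 1 was left out as an outlier. The Cy5 signals of the Csf3r probe were 66730 and 88880 in the basal cells, 82060 and 31780 in KO and 42440 and 32240 in WT macrophages. On each array 98.44% to 99.77% of probes were at or below it. Over the arrays, the median Cy5 signal of the 2 same-strand probes ran from 54360 to 209100, and that of the 2 complement probes from 341 to 4639. Whether the Csf3r reading comes from Csf3r transcripts was not tested. For Csf3r, KO minus WT was -0.60 (SE 1.06), but 0.80 without WT replicate 1 and 0.78 with median centring, and basal minus macrophage was -1.08 (SE 0.95), or -0.38 without WT replicate 1. The profiles most like it were those of Zfp119b (0.125), Ctdsp1 (0.129), Gla (0.133), Heatr3 (0.160) and Coa8 (0.170). Neutrophils are known to carry this receptor, and their 10 markers had median ratios of -0.02 on both basal arrays, 3.35 and 1.94 in KO and 0.69 and 3.74 in WT macrophages. Their part in the Csf3r reading was not tested.

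**Figure D2:**
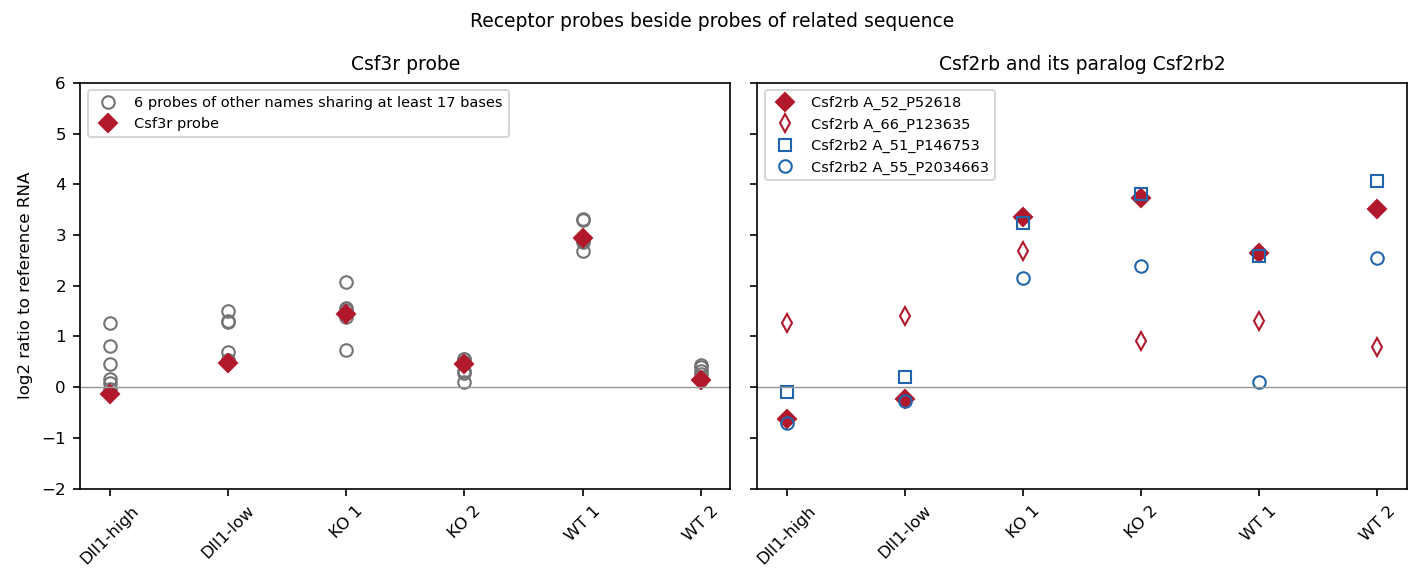
Log2 ratio to the reference RNA (y axis) on each array (x axis). Left, the Csf3r probe (diamonds) with the 6 probes of other names that share at least 17 bases with it (circles): with loess all are highest on WT replicate 1, where Csf3r read 2.94 (0.07 with median centring). Right, Csf2rb and Csf2rb2 probes: the main probes of both genes lie at -0.62 to 0.20 on the basal arrays and 2.58 to 4.07 on the macrophage arrays.

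Across the 13 probes, the difference between basal cells and macrophages ran between -4.51 and 1.73, with 2 probes higher and 11 lower in basal cells and a median of -0.73, beside a median of -0.03 over all tested probes. No member was called among the 12 tested, and limma called 0 of all 47690 probes (0%), with a smallest adjusted p of 0.054. At an unadjusted p under 0.05 there were 4 member probes, the Il34 probe, 2 Csf1r probes and 1 Csf2rb probe, beside 13.1% of all probes. By size, 1 of the 13 probes was at least 2-fold higher in basal cells, as were 5.27% of all probes, and 5 at least 2-fold lower, as were 6.99%. Of the main probes, 4 of 8 kept both basal arrays to one side of all 4 macrophage arrays: Il34 above, as in 15.8% of all probes, Csf1r and Csf2rb below, as in 17.3%, and Csf2 below by a gap of 0.02 between readings mostly at background. In bulk samples such as these, fewer cells of a type and less RNA per cell cannot be told apart.

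**Figure D3:**
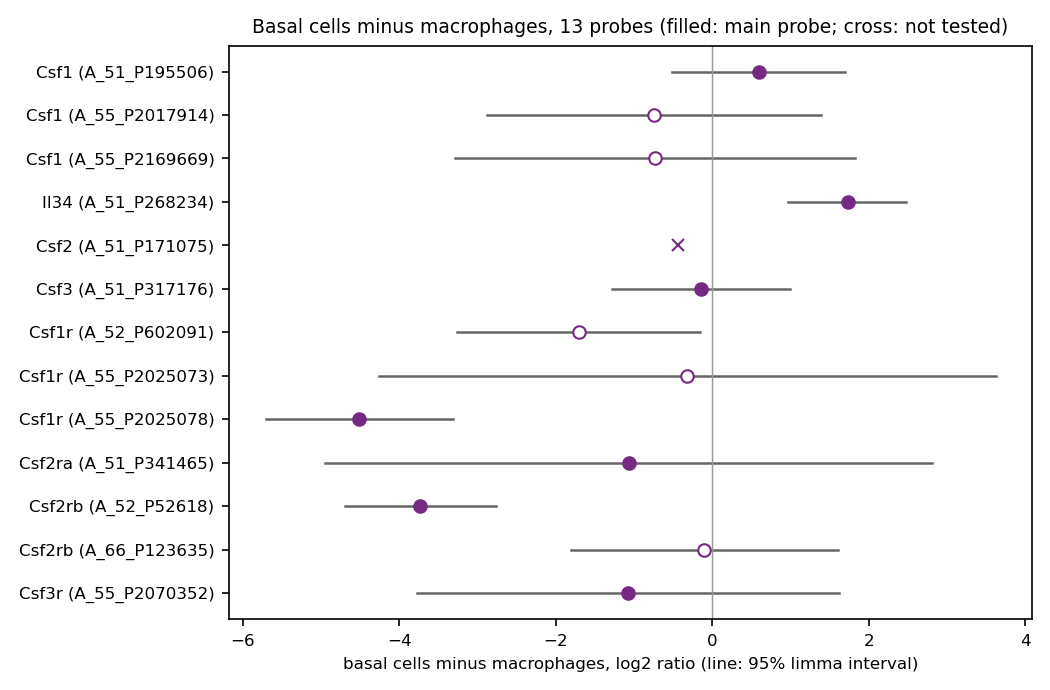
Mean of the 2 basal arrays minus mean of the 4 macrophage arrays in log2 ratio (x axis) for the 13 probes (y axis), with 95% limma intervals; filled points are main probes and the cross, Csf2, was not tested. The Csf1r main probe (-4.51), the Csf2rb main probe (-3.73) and Il34 (1.73) have intervals that leave out 0, as does the second Csf1r probe (-1.71); the third Csf1r probe (-0.32) and the second Csf2rb probe (-0.10) lie near 0.

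For KO against WT macrophages, no member was called among the 12 probes tested, and limma called 0 of all 34916 probes (0%), with 50 probes at an unadjusted p under 0.05 (0.143%), no member among them. The 13 differences ran between -2.57 and 1.31 with a median of -0.55, beside -0.07 over all tested probes. By size, 5 of the 13 were at least 2-fold apart, as were 6.1% of all probes: the Csf1 main probe and 1 variant probe, 2 Csf1r probes of opposite sign, and Csf2ra. Leaving out Csf2ra for its failed spot, 4 of 12 were, and the differences ran between -1.51 and 1.31 with a median of -0.26. Of the 8 main probes, 3 kept the genotypes apart: Csf1 and Il34 lower in KO (both turned with median centring), as in 12.9% of all probes, and Csf1r higher, as in 7.34%. Markers of other cells differed in the same comparison: all 9 tested fibroblast markers and all 10 endothelial markers were lower in KO on average, with median differences of -0.55 and -0.77. The fibroblast direction came from WT replicate 1, since without it 7 of 9 were higher in KO with a median of 0.43. Of the endothelial markers 9 of 10 stayed lower without it, with a median of -0.98. Other lists were mostly higher in KO: 8 of 9 neutrophil (median 0.39) and 6 of 7 monocyte markers (0.63). So were 5 of 7 T and NK (0.29) and 5 of 5 B cell markers (0.76). Without WT replicate 1 these 4 lists had 2 of 9 (-0.71), 3 of 7 (-0.01), 6 of 7 (0.70) and 5 of 5 (0.15) higher. Their part was not tested. The summed Cy5 level of the fibroblast list on a log2 scale was 15.37 and 15.01 in KO, against 16.87 and 14.59 in WT, and that of the endothelial list was 14.14 and 15.00 in KO, against 15.10 and 16.26 in WT. Between 9 and 10 of the 10 fibroblast markers and between 8 and 10 of the endothelial ones were well above background on each macrophage array, and their part in the ligand differences was not tested.

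**Figure D4:**
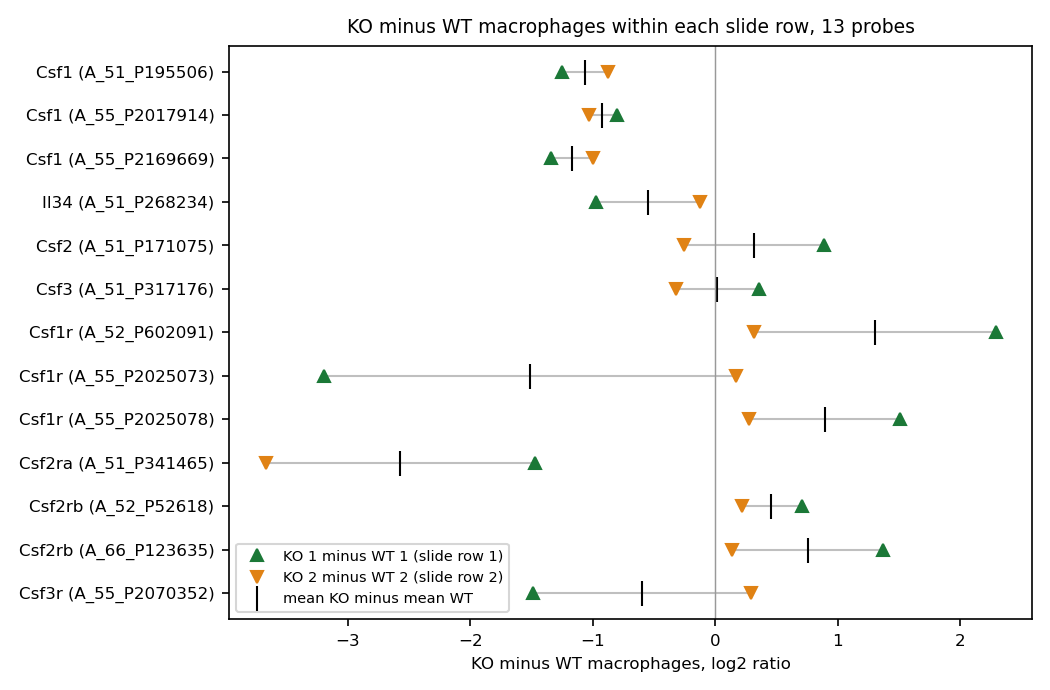
KO minus WT macrophages in log2 ratio (x axis) for the 13 probes (y axis); upward triangles compare the arrays in slide row 1, downward triangles those in row 2, and the bar is the difference of the group means. The 3 Csf1 probes and Il34 are below 0 in both rows with loess (the means of the Csf1 main probe and Il34 turn to 0.08 and 0.20 with median centring), while Csf3r turns between -1.49 in row 1 and 0.29 in row 2.

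Dll1-high and Dll1-low basal cells had 1 array each, so their differences have no replicate check. With loess-normalized ratios none of the members differed 2-fold, beside 77 of 49637 probes (0.155%), of which 0.0786% were higher and 0.0766% lower in Dll1-high cells. As a measure of spot noise alone, a difference of single spots had a median SD of 0.126 over the 375 probes spotted 10 times. Of those SDs, 95% lay under 0.248. They overstate the spot noise of a mean over 10 spots, as for the Csf1 main probe, whose spot SDs were 0.0378 in Dll1-high and 0.0438 in Dll1-low cells. The Csf1 main probe read 0.33 higher in Dll1-high cells, but its variant probes differed by 0.07 and 0.06. The receptors lay the other way or near 0: Csf1r differed by -0.35, -0.23 and -0.29 on its 3 probes, Csf2rb by -0.38 and -0.14, Csf2ra by -0.14 and Csf3r by -0.61. The Il34 difference of 0.70 lay at percentile 99.69 of all tested differences, and the Cy5 channel alone gave 0.73. That of Csf3, 0.71 and percentile 99.71, was 0.37 in the Cy5 channel alone and 2.83, over 2-fold, with processed signals and in the authors' deposited table.

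The wider pathways were read from 42 genes in 5 lists that hold none of the 8, each by its main probe. None was called in any comparison. Of 14 genes of CSF1R signalling and its macrophage targets, 3 were higher and 11 lower in basal cells, with a median of -2.43. Tyrobp, which encodes the adaptor DAP12, differed by -4.89 (SE 1.30), the lowest of all 42. Inpp5d, which encodes the phosphatase SHIP1, was next at -4.54 (SE 0.19). Inpp5d read -2.28 and -2.06 in Dll1-high and Dll1-low basal cells, against 2.76 and 2.68 in KO and 1.89 and 2.15 in WT macrophages, and its adjusted p was 0.054 in limma.

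Both other genes whose products bind IL-34 were higher in basal cells without passing the test. Ptprz1, which encodes a receptor tyrosine phosphatase, read 2.83 and 2.56 in Dll1-high and Dll1-low basal cells, 0.63 and -0.04 in KO and 0.36 and 0.11 in WT macrophages, a difference of 2.43 (SE 0.28, limma adjusted p 0.0828). Sdc1, which encodes syndecan-1, read 0.57 and 0.73 in the basal cells, -1.99 and -2.09 in KO and -1.36 and -1.68 in WT macrophages, a difference of 2.43 as well (SE 0.20, limma adjusted p 0.0617). Pdgfa, a ligand of receptors related to CSF1R, had the highest difference of the lists at 2.56 (SE 0.19). The 11 genes around the common beta chain had a median of -1.45 with 2 higher and 9 lower, and the 7 genes of G-CSF receptor signalling one of -0.16 with 3 higher and 4 lower. The 8 genes of receptors related to CSF1R and their ligands had 3 higher and 5 lower and a median of -0.50.

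Between KO and WT macrophages, 20 of the 40 pathway genes tested were higher and 19 lower, but 10 higher and 30 lower without WT replicate 1. The widest differences were those of Kit, the stem cell factor receptor, at 1.15 (SE 1.00), Pik3r1, a regulatory subunit of PI3 kinase, at 0.96 (SE 0.81), Tyrobp at -1.24 (SE 1.44) and Il3ra, the IL-3 receptor alpha chain, at -0.66 (SE 0.60). Kit and Pik3r1 turned to -0.22 and -0.14 without WT replicate 1, where they read 1.40 and 0.45, while Tyrobp and Il3ra gave -1.67 and -0.88. Kit is also 1 of 7 mast cell markers, of which 5 of 6 tested were higher in KO with a median of 1.05, or 4 of 6 with a median of 0.27 without that array; their part was not tested. The Tyrobp probe was not well above background on KO replicate 1, where it read 0.43, against 4.43 on KO replicate 2 and 3.24 and 4.10 in WT. Between Dll1-high and Dll1-low basal cells, 17 of 42 were higher and 25 lower, within -0.59 for Pdgfrb and 0.43 for Il3.

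**Figure D5:**
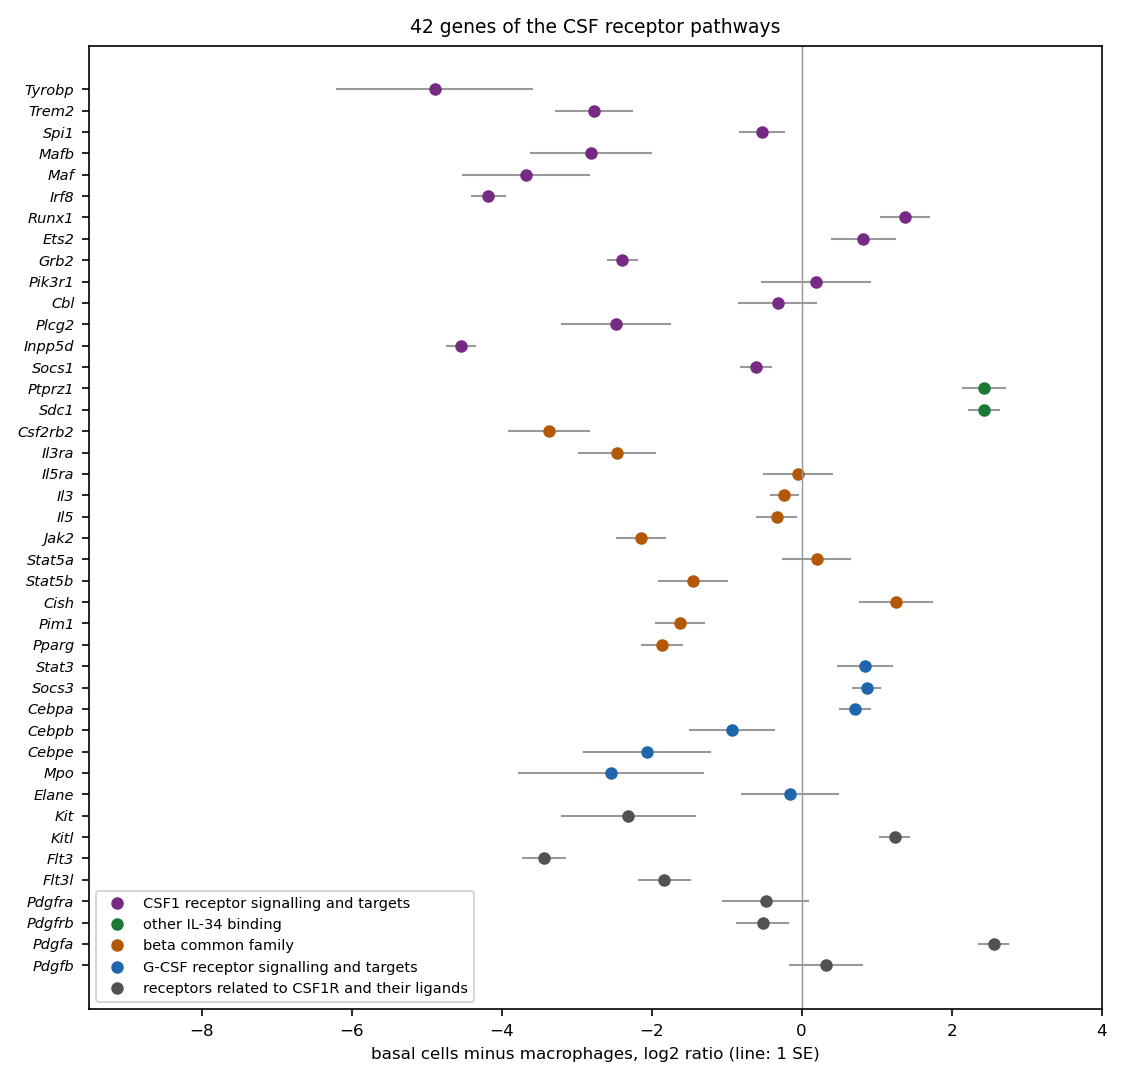
Basal cells minus macrophages in log2 ratio (x axis, lines show 1 SE) for 42 genes of the receptor pathways (y axis), coloured by list. Most CSF1R signalling genes lie left of 0, down to -4.89 for Tyrobp, and the 2 other IL-34 binding genes lie at 2.43.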

How the data were processed

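Per the file headers, Agilent Feature Extraction read the basal arrays in version 11.0.1.1 and the macrophage arrays in version 12.0.2.2; the submitters' processing notes name 11.0. Spot and local background signals are raw intensity values, per the file headers, which also place the probes on mm9. The scanner's log10 ratio of processed red over green signal, per the file headers, was used to check the scale of the authors' deposited table, whose values are log2 ratios and served as an alternative. Median spot signals were corrected by normexp with an offset of 50 and the ratios by loess per array. Outlier spots (170 to 500 of 62976) were dropped and the rest averaged to 55681 probes, in limma 3.58.1 (with R 4.3.3). The dyes were never swapped. Probes whose Cy5 stood well above background on 2 or more arrays of a comparison entered limma, with Benjamini-Hochberg adjustment over all tested probes at 0.05. Basal cells were set against macrophages in a model of 4 groups, whose spread comes from the macrophage arrays alone. Dll1-high and Dll1-low cells, with 1 array each, were compared by their difference, called at 2-fold. The fits were tested on simulated data, with pass conditions set only at a spread well under that of the real arrays. Members, lists and comparisons were chosen with earlier results of these data known. All member probes were named; of the pathway lists, the 2 of largest difference each way; and for members spanning over 2 on the log2 scale, the 5 genes of closest profile. The number of arrays limits the precision.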

Additional observations from a re-analysis of the deposited data

How the results depend on the processing

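Of 271 values of main member probes under alternatives, 253 stayed on their side of the threshold and, but for 1, kept their direction; Csf2ra, at -0.14 in Dll1-high minus Dll1-low cells, was 0.04 in the Cy5 channel alone. Limma called 0 probes between KO and WT in all of them, each left-out array included (0 to 0). With the replicate number as a block it called 0, with 207 probes at an unadjusted p under 0.05; same-numbered arrays deviated together (correlation 0.576 of KO 1 minus KO 2 with WT 1 minus WT 2), but 2 pairs do not settle a pairing. Between basal cells and macrophages, 378 probes (119 higher, 259 lower) were called when well above background on every array was required, 93 (43 higher, 50 lower) with 1 probe a gene and 421 (206 higher, 215 lower) with a trend and robust prior, and 0 without any 1 array. Csf1r and Csf2rb passed only under the first of these among the alternatives run for members, which tests fewer probes. Between Dll1-high and Dll1-low cells, processed signals and the authors' table both gave 2044 probes 2-fold apart (666 higher, 1378 lower), against 77, and a Csf3 difference of 2.83. Median centring moved the median KO minus WT difference of all probes to 0.39, against -0.07. It turned Csf1 to 0.08, Il34 to 0.20 and Csf3r to 0.78, and widened Csf1r to 2.14 and Csf2rb to 1.52. Csf3 KO minus WT turned to -0.86 with processed signals and with the authors' table, -0.18 without KO replicate 2, -0.52 without WT replicate 1 and -0.32 in slide row 2 (-0.52 to 0.55 over left-out arrays), and its basal minus macrophage to 0.12 without WT replicate 2 and 0.21 without the Dll1-low array (-0.50 to 0.21 over left-out arrays). Csf3r KO minus WT turned to 0.80 without WT replicate 1 and 0.29 in row 2 (-1.99 to 0.80 over left-out arrays). Without WT replicate 1, KO minus WT turned to 0.62 on the third Csf1r probe, -0.22 for Kit, -0.14 for Pik3r1, and in list medians to -0.15 for macrophage and 0.43 for fibroblast markers. The cause was not tested. The median over spots and this last set were chosen after seeing the data. Macrophage signals were dim, at a median of 98 to 155.5 over a background of 64 to 68, which limits Csf2, Csf3 and Il34 most.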
